A study of Camelus dromedarius with 10 samples.

Results

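Glial lineage transcription factors are the DNA-binding proteins that set and hold the identity of oligodendrocytes, astrocytes and their progenitors. The factors looked for were SOX2, SOX8, SOX9, SOX10, OLIG1, OLIG2, NKX2-2, NKX6-2, MYRF and HES5. A row of the camel count table was taken as a member where its Ensembl gene ID was paired with one of these symbols in the supplementary gene tables of the study. This gave 7 of the 10 factors and 7 of 22444 gene IDs. SOX2, SOX9 and HES5 were not paired with an ID and were not analysed here, so the factors described below are those of the oligodendrocyte lineage.

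RNA was sequenced from the rostral supraoptic nucleus (SON), a hypothalamic nucleus of vasopressin and oxytocin neurones, of male dromedary camels 4 to 5 years old. The control group was 5 camels with food and water freely available, and the 5 water deprived (WD) camels had food but no water for 20 days. The libraries are named here by group and by the number in their label (CON2, CON3, CON4, CON5 and CON13, and WD6, WD7, WD8, WD9 and WD15). Each sample was taken from 1 side of the brain by punching tissue, so neurones, glia and vessels were sequenced together, and fewer cells of a type and less RNA per cell cannot be told apart.

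In an oligodendrocyte lineage cell these factors act in sequence. OLIG2 and OLIG1 are basic helix-loop-helix proteins that specify progenitors and carry them towards differentiation, with NKX2-2 as a homeodomain partner at the onset of differentiation. SOX10, with its close relative SOX8, is present throughout the lineage and binds at myelin gene enhancers. MYRF is switched on by SOX10 as cells leave the progenitor state, and it drives the myelin genes together with SOX10, while NKX6-2 is a homeodomain factor of maturing, myelinating cells. In the SON, glia are known for their contact with the neurosecretory cells, and the rostral SON lies against the optic chiasm, a myelinated tract.

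Depth limited the weaker members. Total counts per library lay between 1665098 and 8126641 read pairs, of which 5 dominant gene IDs, those with over 1% of the counts of a library, took 27.7% to 76.1%. Levels are given as CPM (counts scaled to library size after TMM normalization), where 1 read pair weighed 1.20 CPM in CON13, 0.475 CPM in WD6 and 0.0864 to 0.237 CPM in the other 8 libraries. All 7 members had counts in every library, and all 7 passed the filter on low counts. Intervals given for single libraries are exact 95% Poisson intervals, which cover counting error only. Exon lengths of the camel genes were not used here, so levels were not compared between genes.

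For none of the 7 factors was a difference between WD and control camels larger than the spread between animals allows to be called. In the quasi-likelihood test of edgeR, with p adjusted by Benjamini-Hochberg over 14432 genes, 0 of 7 reached an adjusted p (padj) of 0.05, against 0.499% of all genes tested. Likewise 0 of 7 had an unadjusted p under 0.05, which 9.31% of all genes had, and DESeq2 also called 0 of 7. In 0 of 7 were the WD libraries all above or all below the control libraries, which was so for 2.62% of all genes. With 7 members, shares this close to the background are not a result about the members. The fitted log2 fold change (WD over control) was below 0 for 6 members and above 0 for 1. Its median over the members was -0.08, and over all genes tested it was 0.02.

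**Figure D1:**
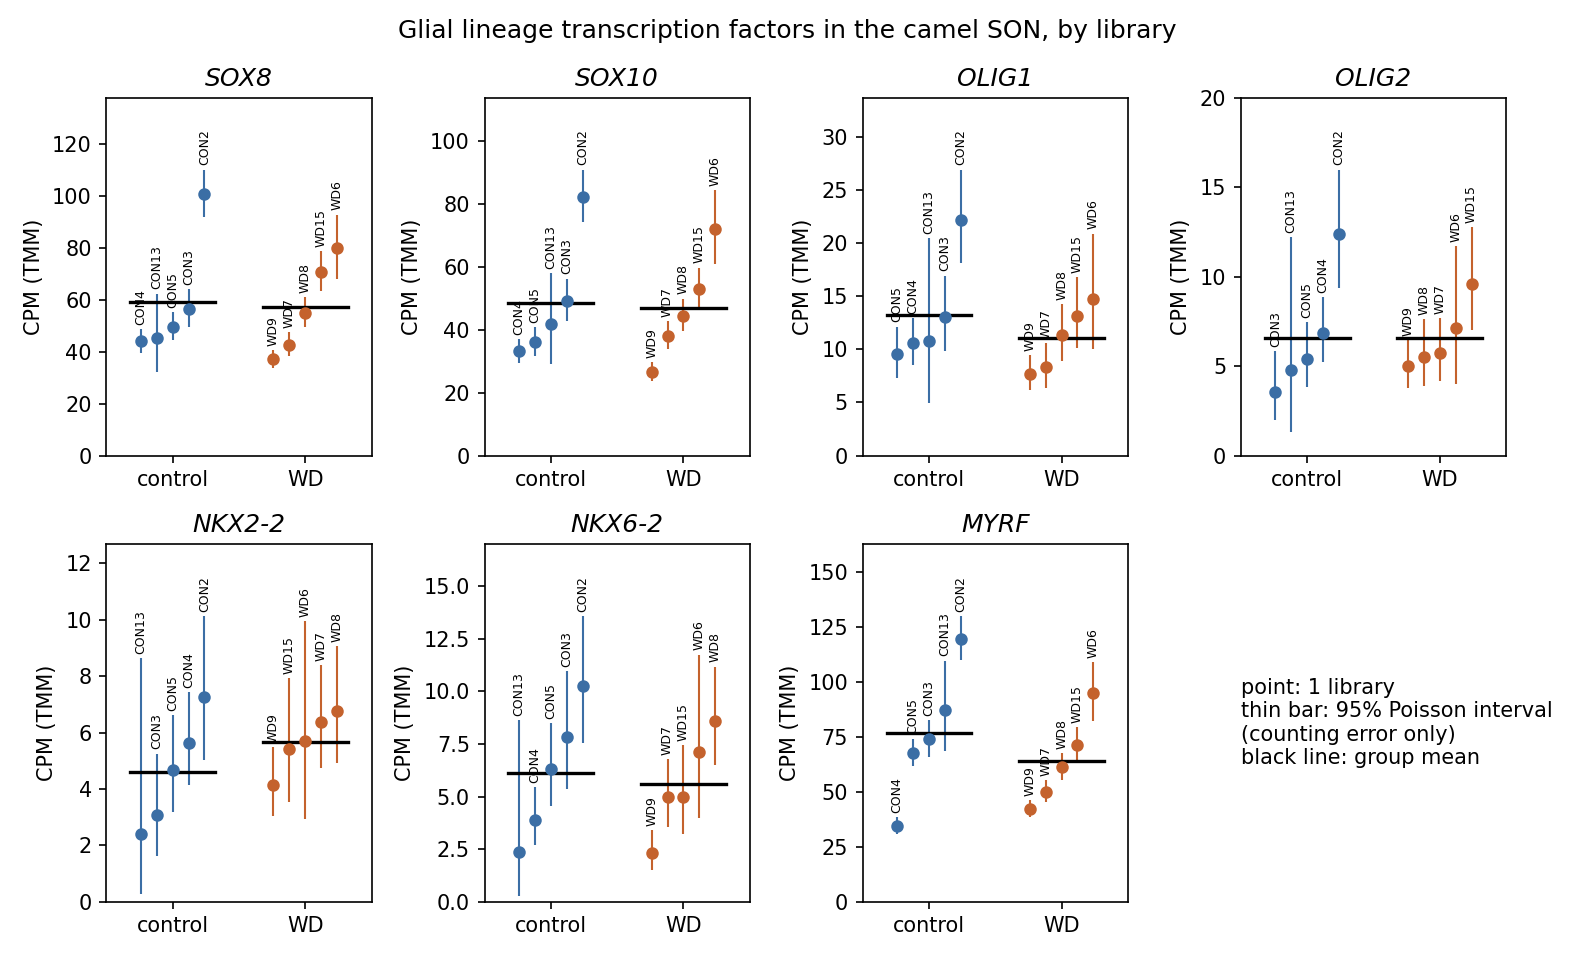
Levels of the 7 glial lineage transcription factors in each library, as CPM after TMM normalization, with control libraries in blue and WD libraries in orange. Points are single libraries with 95% Poisson intervals of their counts, and black lines are group means. The groups overlap for every factor, and CON2 is the highest library in all 7 panels.

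SOX10 and SOX8 are SOXE proteins, which bind the same DNA motif through their HMG box. SOX10 was measured at 82.4 CPM in CON2, 49.2 in CON3, 33.2 in CON4, 36.2 in CON5 and 41.8 in CON13. In the WD camels it stood at 72.1 CPM in WD6, 38.1 in WD7, 44.6 in WD8, 26.5 in WD9 and 52.9 in WD15. The WD range therefore covered all but the highest control library, and the means were 48.6 ± 19.9 CPM in control and 46.9 ± 17.1 CPM in WD (SD, n = 5 each). The log2 fold change of SOX10 was -0.08 with a standard error (SE) of 0.27 and an edgeR padj of 0.960. Its 95% interval ran from -0.66 to 0.50, so that a WD level between 0.634 and 1.41 times the control level is compatible with these libraries.

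SOX8 followed the same pattern. Its control levels were 101 CPM in CON2, 56.3 in CON3, 43.9 in CON4, 49.6 in CON5 and 45.4 in CON13. Its WD levels were 79.7 CPM in WD6, 42.7 in WD7, 55.0 in WD8, 37.1 in WD9 and 70.6 in WD15. CON2 stood apart from the other control libraries, which lay between 43.9 and 56.3 CPM, and its interval of 91.7 to 110 CPM did not reach them. The log2 fold change of SOX8 was -0.08 (SE 0.25, 95% interval -0.62 to 0.45, edgeR padj 0.954). For both SOX genes the sign rested on single libraries, since without CON2 the log2 fold change was 0.18 for SOX8 and 0.19 for SOX10, with edgeR padj of 0.892 and 0.898, and without WD9 it was 0.04 and 0.07.

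OLIG1 and OLIG2 lie side by side on 1 chromosome in the RefSeq gene table of another camel assembly (mCamDro1.pat), with 0 protein-coding genes starting between them. OLIG1 was measured at 22.2 CPM in CON2, 13.01 in CON3, 10.6 in CON4, 9.52 in CON5 and 10.8 in CON13, and at 14.7 CPM in WD6, 8.29 in WD7, 11.4 in WD8, 7.69 in WD9 and 13.1 in WD15. The WD mean of 11.04 ± 3.03 CPM lay below the control mean of 13.2 ± 5.18 CPM (SD, n = 5 each), and without CON2 the other 4 control libraries averaged 10.96 CPM. OLIG1 had the lowest log2 fold change of the 7 factors, -0.31 (SE 0.28, 95% interval -0.90 to 0.28, edgeR padj 0.798). With the RNA integrity number as a covariate it was -0.51 with an unadjusted p of 0.0425 and an edgeR padj of 0.501.

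OLIG2 was measured with fewer counts, between 4 and 60 read pairs per library. Its control levels were 12.4 CPM in CON2, 3.55 in CON3, 6.88 in CON4, 5.42 in CON5 and 4.78 in CON13, and its WD levels were 7.12 CPM in WD6, 5.74 in WD7, 5.53 in WD8, 5.01 in WD9 and 9.58 in WD15. The group means were nearly the same, 6.60 ± 3.45 CPM in control and 6.60 ± 1.84 CPM in WD (SD, n = 5 each). The log2 fold change was -0.06 (SE 0.35, 95% interval -0.79 to 0.66, edgeR padj 0.974). Without CON2 it was 0.28, with an edgeR padj of 0.889.

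The 2 homeodomain factors had the lowest counts, and 2 read pairs each in CON13. NKX2-2 was measured at 7.26 CPM in CON2, 3.08 in CON3, 5.62 in CON4, 4.68 in CON5 and 2.39 in CON13, against 5.69 CPM in WD6, 6.38 in WD7, 6.76 in WD8, 4.15 in WD9 and 5.42 in WD15. It was the only factor with a fitted log2 fold change above 0, of 0.21 (SE 0.33, 95% interval -0.49 to 0.92, edgeR padj 0.907). Its WD libraries were the least scattered of all members, with a coefficient of variation of 17.8%.

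NKX6-2 was measured at 10.2 CPM in CON2, 7.81 in CON3, 3.90 in CON4, 6.29 in CON5 and 2.39 in CON13, and at 7.12 CPM in WD6, 4.97 in WD7, 8.60 in WD8, 2.33 in WD9 and 5.00 in WD15. Low and high libraries occurred in both groups, and the ratio of the highest to the lowest library, 4.39, was the largest among the 7 factors. The log2 fold change was -0.24 (SE 0.40, 95% interval -1.07 to 0.59, edgeR padj 0.914). This interval is the widest of the members, and a difference of 2-fold in the downward direction lies inside it.

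MYRF, the membrane-bound factor that starts the myelin programme, was covered by 73 to 561 read pairs per library. Its control levels were 120 CPM in CON2, 74.0 in CON3, 34.5 in CON4, 67.8 in CON5 and 87.3 in CON13. Its WD levels were 94.9 CPM in WD6, 50.1 in WD7, 61.5 in WD8, 42.4 in WD9 and 71.5 in WD15. The lowest and the highest library were both controls, and all WD libraries lay between them. The means were 76.7 ± 30.9 CPM in control and 64.1 ± 20.5 CPM in WD (SD, n = 5 each). The log2 fold change was -0.26 (SE 0.28, 95% interval -0.84 to 0.32, edgeR padj 0.838). It was -0.04 without CON2 and -0.47 without CON4.

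**Figure D2:**
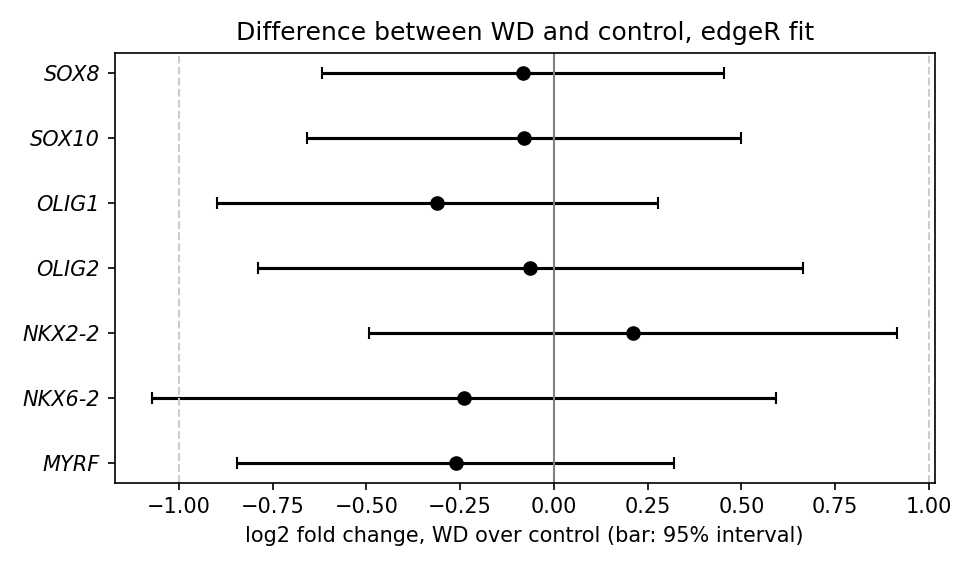
Log2 fold change of each factor, WD over control, from the edgeR fit to 5 control and 5 WD libraries. Points are estimates and bars are 95% intervals. All 7 intervals include 0, and that of NKX6-2 alone reaches past -1.

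The spread between camels was wide in comparison with the difference between conditions. The coefficient of variation among control libraries was between 39.3% (OLIG1) and 52.2% (OLIG2), with a median of 40.9%, where the median over all genes tested was 28.5%. In the WD libraries the median was 31.7% for the members and 27.9% for all genes tested. CON2 was the highest library for 7 of 7 factors, so part of the control spread rested on it. The other control libraries lay between 43.9 and 56.3 CPM for SOX8, 33.2 and 49.2 for SOX10, and 9.52 and 13.01 for OLIG1. Relative to their level they lay further apart for MYRF (34.5 to 87.3 CPM), OLIG2 (3.55 to 6.88), NKX2-2 (2.39 to 5.62) and NKX6-2 (2.39 to 7.81). Coefficients of variation without CON2 were not computed, and the median over all genes was not matched for count level. Among the WD libraries, WD9 was the lowest for 7 of 7 and WD6 was the highest for 4 of 7.

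The factors did not vary independently of each other. Across the 10 libraries, log2 CPM of SOX8 and SOX10 had a Pearson's r of 0.96 and a Spearman's rho of 0.94, with permutation padj of 0.00042 and 0.00175 over the 21 pairs of members. SOX8 and OLIG1 had r = 0.94 and rho = 0.96 (permutation padj 0.00049 and 0.000945), and SOX10 and OLIG1 had r = 0.93 and rho = 0.95 (permutation padj 0.00049 and 0.000945). In the ranking of the other 14431 genes tested by r with SOX10, SOX8 was at rank 1, OLIG1 at rank 6 and MYRF at rank 46. Ranked by r with OLIG1, SOX8 was at rank 2 and SOX10 at rank 3.

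MYRF belonged to the same set, though less tightly. Its r was 0.86 with SOX10, 0.80 with SOX8 and 0.79 with OLIG1, with permutation padj of 0.00982, 0.0208 and 0.0221. Within the WD group alone, SOX8, SOX10, OLIG1 and MYRF put the 5 libraries in the same order (WD6, WD15, WD8, WD7, WD9, from high to low). Within the control group rho for their 6 pairs was between 0.70 and 0.90, as a description of 5 libraries.

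These relations differed in how far they rested on the extreme libraries. Without CON2 and WD6, the 2 libraries farthest from the median of SOX8, r was 0.90 for SOX8 and SOX10 and 0.85 for SOX8 and OLIG1, and r of SOX8 and MYRF was 0.58. Without CON2 alone, 3 pairs in place of 8 had a permutation padj of r of at most 0.05, and these were the 3 pairs among SOX8, SOX10 and OLIG1. Each of these 3 pairs kept a permutation padj of r of at most 0.05 in 10 of 10 fits that left out 1 library.

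For OLIG2 and the homeodomain factors r with this set was lower and depended more on single libraries, and the difference between these r was not tested. OLIG2 and SOX8 had r = 0.71 (permutation padj 0.0512), and 0.37 without CON2 and WD6. It was 0.46 without CON2 alone and 0.72 without WD6 alone. Without CON3, where OLIG2 had 15 read pairs, r of OLIG2 was 0.86 with SOX8, 0.87 with OLIG1 and 0.78 with SOX10, with permutation padj of 0.0144, 0.0144 and 0.0293. OLIG2 and its genomic neighbour OLIG1 had r = 0.64 (permutation padj 0.0824), and 0.19 without CON2 and WD9. NKX6-2 had r = 0.75 with SOX8 and 0.74 with SOX10 (permutation padj 0.0374 for both), each 0.64 without CON2 and WD6. NKX2-2 was closest to OLIG2, with r = 0.68 and rho = 0.73 (permutation padj 0.0607 and 0.0482), and its r with MYRF was 0.00. OLIG2, NKX2-2 and NKX6-2 are also the members with the fewest counts, and the part of counting error in their lower r was not tested.

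**Figure D3:**
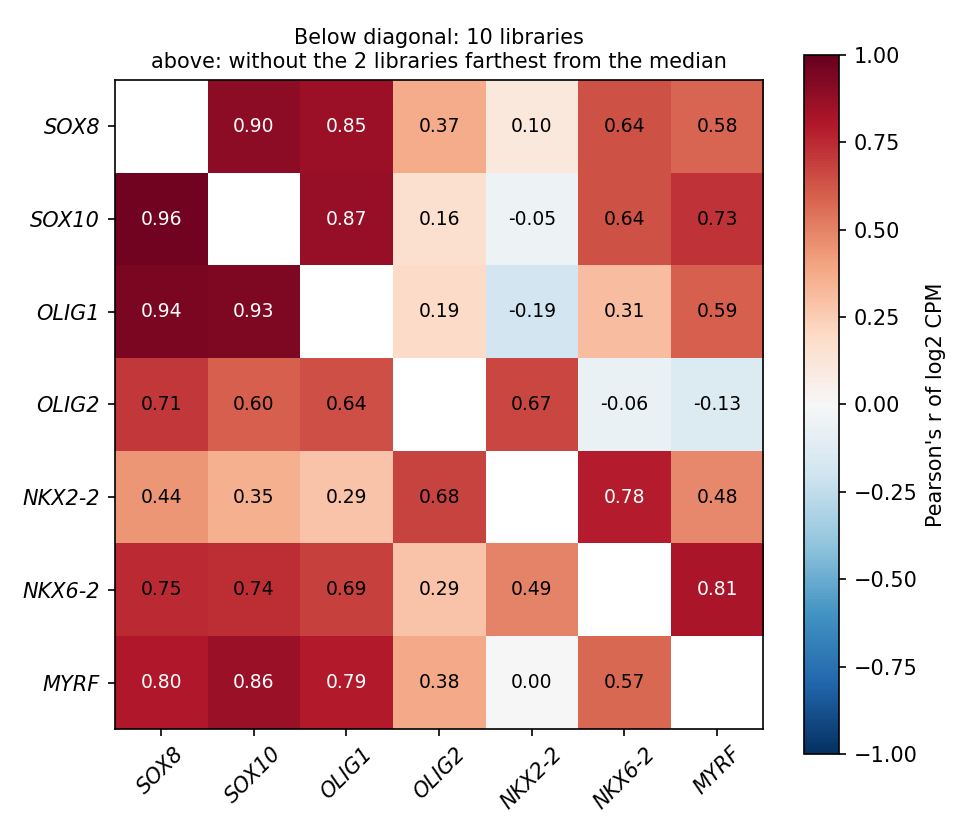
Pearson's r of log2 CPM for each pair of factors. Cells below the diagonal use all 10 libraries and cells above it leave out the 2 libraries farthest from the median of the factor listed first. SOX8, SOX10 and OLIG1 keep r of 0.85 or more on both sides of the diagonal, while most values for OLIG2 and NKX2-2 drop.

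Levels of these factors were also set against library depth. Against the log2 number of counts outside the 5 dominant IDs, rho was -0.67 for SOX8, -0.75 for SOX10, -0.72 for OLIG1 and -0.89 for MYRF, and only that of MYRF had a permutation padj below 0.05 over the 7 relations (0.00686, against 0.0674, 0.0534 and 0.0534). Pearson's r was weaker, at -0.31, -0.47, -0.41 and -0.68 in the same order, and CON13, the shallowest library, was not among the highest for SOX8 (45.4 CPM), SOX10 (41.8 CPM) or OLIG1 (10.8 CPM). Without CON13 and WD6, the libraries farthest from the median depth, r was -0.83, -0.88, -0.81 and -0.84. In the WD group the order of these 4 factors was the exact reverse of the order of depth. In the control group rho with depth was -0.30 for SOX8, -0.60 for SOX10, -0.50 for OLIG1 and -0.70 for MYRF. For the remaining members rho over the 10 libraries was -0.08 for OLIG2, 0.16 for NKX2-2 and -0.39 for NKX6-2 (permutation padj 0.837, 0.768 and 0.371). Of all genes tested, 2.12% had a rho with depth as low as that of MYRF and 13.3% one as low as that of SOX8. The part of depth in the shared variation was not tested.

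**Figure D4:**
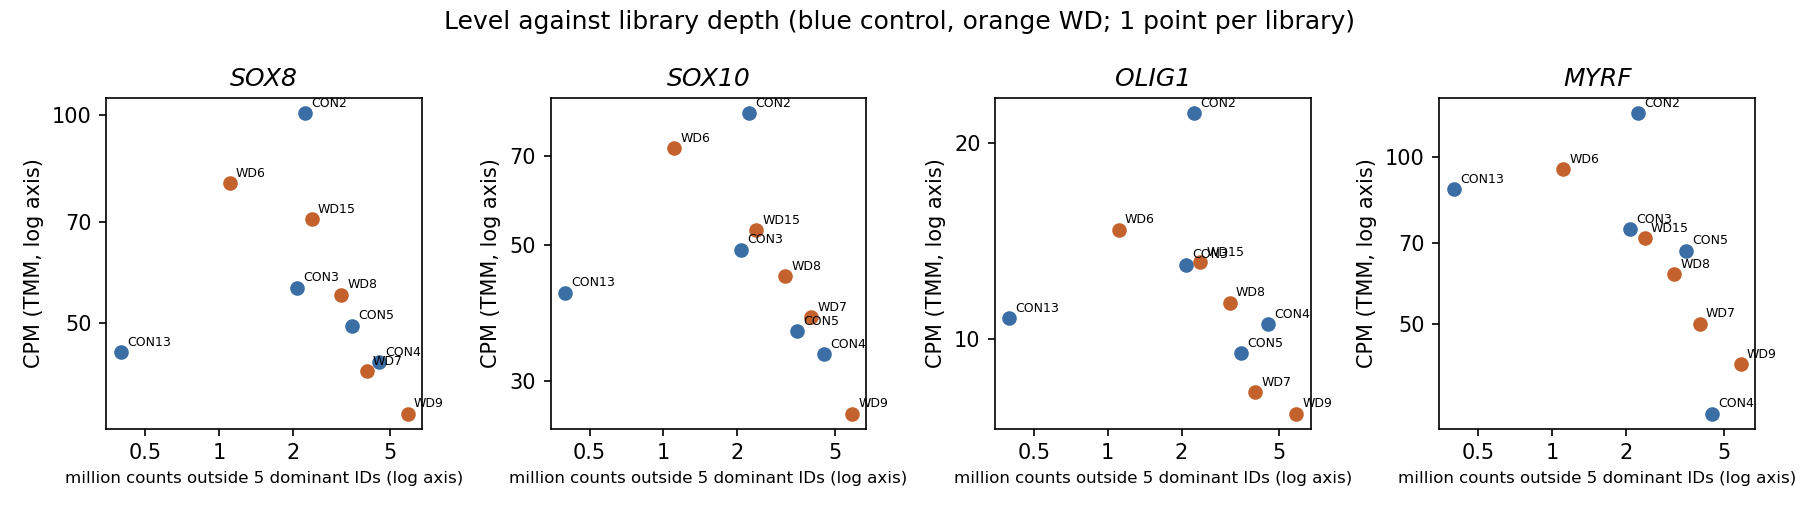
Level of SOX8, SOX10, OLIG1 and MYRF (CPM after TMM normalization, log axis) against the number of counts outside the 5 dominant gene IDs (log axis), 1 point per library. In the WD libraries (orange) each level declines from WD6 to WD9 as depth grows, and CON13 (blue), at the left, lies off that line for SOX8, SOX10 and OLIG1.

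Ratios of counts within a library do not depend on how libraries are scaled. The ratio of SOX8 to SOX10 read pairs was 1.22 in CON2, 1.14 in CON3, 1.33 in CON4, 1.37 in CON5 and 1.09 in CON13, and it was 1.11 in WD6, 1.12 in WD7, 1.23 in WD8, 1.40 in WD9 and 1.33 in WD15. The highest of these ratios was 1.29 times the lowest, although the level of SOX10 itself spanned 3.11-fold. SOX8 to OLIG1 was as steady, between 4.16 and 5.42. In contrast, the ratio of SOX10 to MYRF ran from 0.479 in CON13 to 0.960 in CON4 among controls, and from 0.625 to 0.761 in the WD libraries. The ratio of OLIG1 to OLIG2 ran from 1.37 in WD15 to 3.67 in CON3.

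Of the 21 ratios between members, 0 differed between WD and control camels in a two-sided exact permutation test of the log2 ratio with Benjamini-Hochberg adjustment, and 1 had an unadjusted p under 0.05. This was SOX8 to OLIG1, which was higher in WD by 0.19 on the log2 scale (means 2.36 and 2.16, exact permutation p = 0.0397, padj 0.708, n = 5 each). The smallest p that 252 assignments allow is 0.00794, so 1 ratio by itself could not reach a padj of 0.05 over 21 ratios, and the count of 0 does not show that the ratios are alike.

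Levels of marker genes are given beside those of the factors. None of the oligodendrocyte, astrocyte, microglia, vascular or neurone markers counted here was at 0 counts in any library. The 9 listed genes of mature oligodendrocytes, the downstream stage of the factors above, had a summed level of 243 to 327 CPM in control and 215 to 295 CPM in WD libraries. As with the factors, 0 of 9 passed the test, with 2 fitted above and 7 below 0 and a median log2 fold change of -0.06. Those with the largest fitted values were ADAMTS4, a secreted protease (log2 fold change 0.08), and ERBB3, a neuregulin receptor (0.01). Those with the smallest were HDAC11, a histone deacetylase (-0.53, SE 0.20, edgeR padj 0.368), and CNDP1, a dipeptidase (-0.38, edgeR padj 0.814). OPALIN (-0.52, edgeR padj 0.491) and QDPR (-0.48, edgeR padj 0.467) are given as values only, because their symbols came from a table ordered by p.

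Several of these mature genes went with the factors from camel to camel. Against the mean standardized log2 CPM of the 7 factors, r over 10 libraries was 0.84 for ADAMTS4, 0.83 for KLK6 (a secreted serine protease), 0.81 for ERBB3 and 0.78 for CDK18. It was -0.03 for CA2, 0.04 for CNDP1 and -0.10 for PIP4K2A. The median r of the 9 was 0.39, beside 0.00 for the other 14425 genes tested. A positive median was not particular to them, since it was 0.48 for the microglia markers and 0.21 for the vascular markers. The medians were 0.12 for progenitor stage genes, 0.02 for partners and regulators of oligodendrocyte differentiation, and -0.01 for astrocyte markers. The 5 genes outside the members with the highest r, of 2323 with a symbol from the table that was not ordered by p, were ZNF652 (0.91), ZNF333 (0.90), MAP4K4 (0.90), HIPK2 (0.88) and MATK (0.87). None of these 5 was called between WD and control (edgeR padj 0.924 to 0.998). They were picked for following the factors over the same libraries, so this is not a separate result.

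Progenitor stage genes gave no call either, with 0 of 6 past the threshold, 2 above and 4 below 0, and a median of -0.13. PDGFRA, the growth factor receptor of oligodendrocyte progenitors, had 38.7 CPM in control and 35.8 CPM in WD (edgeR padj 0.906). PTPRZ1, a receptor phosphatase, was at 0.20. GPR17, a receptor of cells on the way to differentiation, was at -0.52 (edgeR padj 0.759), and SOX6, which restrains differentiation, at -0.30.

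Of 12 tested partners and regulators of oligodendrocyte differentiation, 0 passed the test, with 9 above and 3 below 0 and a median of 0.11. ZNF24 (0.31, edgeR padj 0.667) and TCF12, a dimerization partner of OLIG proteins (0.28, edgeR padj 0.741), had the largest fitted log2 fold changes. PROX1 (-0.42, edgeR padj 0.631) and TCF7L2, a Wnt pathway factor that is expressed as myelination begins (-0.35, edgeR padj 0.696), had the smallest. ZNF488 did not pass the filter.

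The Notch pathway holds progenitors back from differentiation through HES and HEY repressors. Of 6 tested HES, HEY and RBPJ genes, 0 passed the test, with 1 above and 5 below 0 and a median of -0.14. HEYL had 22.2 CPM in control and 10.2 CPM in WD libraries, with a log2 fold change of -1.16 (SE 0.29, edgeR padj 0.104). DESeq2 called HEYL, with a padj of 0.0351, and so did edgeR with a depth group as covariate, with a padj of 0.00206. HEY2 was at -0.31, RBPJ, the DNA-binding partner of Notch, at 0.39 (edgeR padj 0.602), and HES1 at -0.02. HES6 had too few counts for the test.

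Among the other SOX genes, 0 of 5 tested passed, with 3 above and 2 below 0 and a median of 0.09. SOX17, an endothelial factor, was at 0.72 (edgeR padj 0.717) and SOX13 at 0.14, while SOX6 was at -0.30 and SOX5 at -0.13. SOX7, SOX15 and SOX21 did not pass the filter. Of 10 sterol synthesis enzymes, which supply the cholesterol of myelin, 0 passed, with 6 above and 4 below 0 and a median of 0.08. SQLE (0.35, edgeR padj 0.607) and IDI1 (0.31) had the largest fitted values, and MVK (-0.36, edgeR padj 0.576) the smallest.

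Markers of astrocytes, microglia and vessels were mostly fitted above 0. For 9 astrocyte markers the summed level was 638 to 813 CPM in control and 761 to 1138 CPM in WD libraries, with 0 of 9 past the threshold, 6 above and 3 below 0. AGT, which encodes angiotensinogen, was at 0.67 (edgeR padj 0.192, DESeq2 padj 0.0214) and PLA2G7 at 0.45, and LHX2 was at -0.22 and ZBTB20 at -0.11. For AGT all WD libraries (397.7 to 595.6 CPM) lay above all control libraries (230.8 to 396.7 CPM). The paper reports AGT as raised in WD, by sequencing and by qRT-PCR in the rostral and caudal SON. As values only, from the table ordered by p, ALDOC was at 0.59 (edgeR padj 0.229, DESeq2 padj 0.0386), ALDH1L1 at 0.55 (edgeR padj 0.390) and GJA1 at 0.50 (edgeR padj 0.502). For 7 microglia markers the sum was 190 to 314 CPM in control and 224 to 709 CPM in WD libraries, with 0 of 7 past the threshold and 7 of 7 fitted above 0 (median 0.71), from IRF8 (0.98, edgeR padj 0.229) and ITGAM (0.90) to SPI1 (0.66) and CSF1R (0.62). The sum of 709 CPM was that of WD15, with 367 CPM in the next WD library, and without WD15 the 7 fitted values had a median of 0.37 and ran from 0.08 to 0.57. For the vascular markers the sum was 166 to 247 CPM in control and 203 to 354 CPM in WD libraries. Their median over the 8 tested was 0.38 and 0 of 8 passed (7 above and 1 below 0), with SOX17 (0.72) and KDR (0.64) at the upper end and TEK (-0.06) and TIE1 (0.15) at the lower.

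The summed level of 6 neurone markers was 314 to 489 CPM in control and 823 to 1411 CPM in WD libraries, and without PCSK1 the other 5 summed to 154 to 221 CPM in control and 133 to 206 CPM in WD. Of the 6, 2 were fitted above and 4 below 0, with a median of -0.04, and 1 passed the test, PCSK1, a prohormone convertase of the neurosecretory cells. It rose in WD by a log2 fold change of 2.02 (SE 0.22, edgeR padj 2.49e-04). The other 5 did not pass, with CHGA at 0.12, OTP at -0.58 (edgeR padj 0.454) and GAD1 at -0.18. With the mean of the glial factors over the 10 libraries, the median r was -0.21 for the 6 neurone markers, from -0.86 for SIM1 to 0.14 for CHGA, and 0.48 for the 7 microglia markers. The part of the cell mixture in the levels of the factors was not tested.

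**Figure D5:**
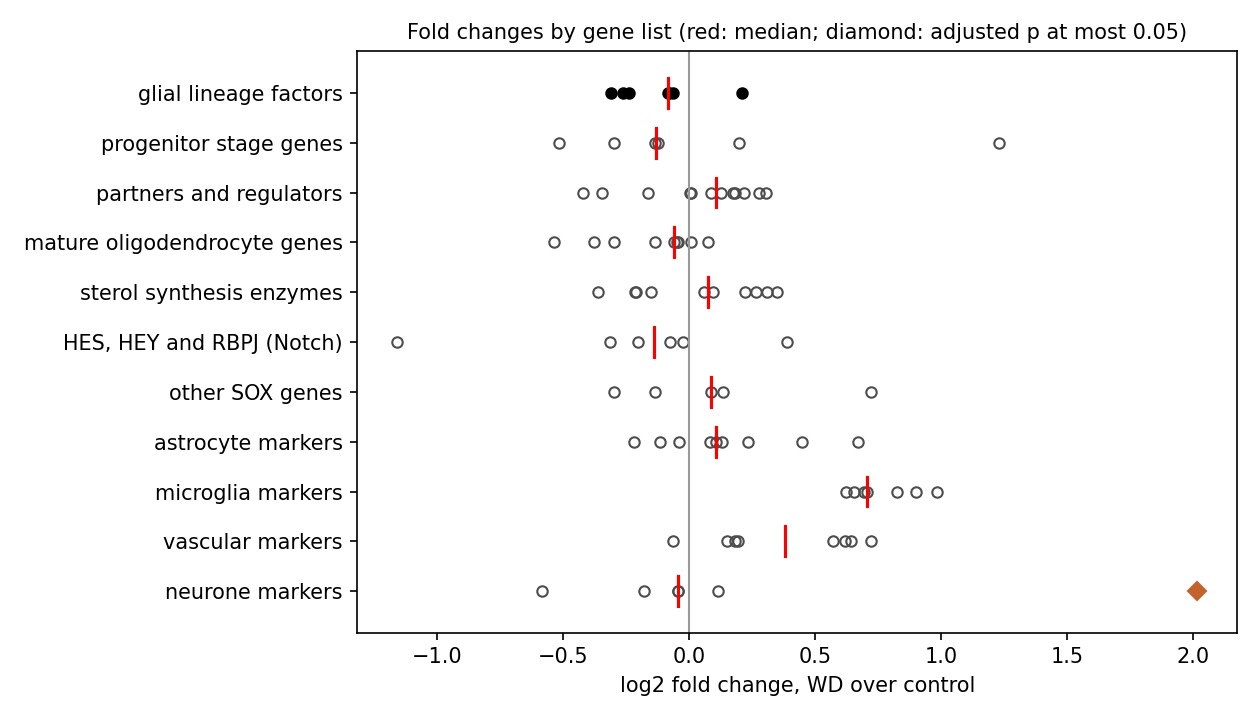
Log2 fold changes (WD over control) of the 7 glial lineage factors (filled circles) and of the genes of each list that were tested (open circles), with the median of each list in red. The factors lie between -0.31 and 0.21. PCSK1, the diamond among the neurone markers, is the only gene shown with an adjusted p of at most 0.05 in the main edgeR fit. DESeq2 also called HEYL and AGT.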

How the data were processed

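Ribosome-depleted total RNA from 5 control and 5 WD camels had been sequenced as paired reads. The authors aligned the reads with STAR and counted read pairs per gene with featureCounts, and the deposited counts are whole numbers without normalization. They also deposited normalized values, a signal in which each count is divided by 1 size factor per library, which was not used for any result here. The strand setting of the counting and the treatment of pairs shared between genes are not given in the sources used here, so counts of overlapping or near-identical genes are uncertain.

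Counts were compared with edgeR 4.0.16 in R 4.3.3 (robust quasi-likelihood F test, TMM normalization, filterByExpr by group, Benjamini-Hochberg adjustment over 14432 genes, threshold 0.05). The biological coefficient of variation was 0.285. The SE is the size of the log2 fold change divided by the square root of F. DESeq2 1.42.0 was an alternative, as were other scalings, filters and covariates and each library left out. The RNA integrity numbers and fragment sizes used as covariates came from the supplement of the study, and the depth group splits the libraries at the median of the counts outside the 5 dominant IDs. Correlations used log2 CPM with a prior count of 0.5 and 1e+05 permutations (Python 3.11.15, numpy 2.4.6, scipy 1.17.1). The r without 2 libraries leaves out those farthest from the median of the factor, or of the depth, on the x axis. The ratios of counts were added after the levels had been seen. The fitting step was tested on simulated data.

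Symbols came from 2 supplementary tables, which pair 4316 of 22444 IDs with a symbol. The copy of 1 of them is shortened and ordered by p, so genes named only there are given as values and are not counted. MYT1L had 2 IDs and was left out. The genes named are all members, the list genes past the threshold with the 2 largest and 2 smallest log2 fold changes of each list, and the 5 genes most like the mean of the members. PDGFRA, KLK6, CDK18, CA2, PIP4K2A, SIM1, OPALIN, QDPR, ALDOC, ALDH1L1 and GJA1 were named after their values had been seen. Values of some list genes that this rule would name are not reported here. The members and the gene lists were chosen with earlier results of these data known. No sequence of a member was in the reference used here, and no coordinates are given. The paper gives 5 camels per group. The labels describe unilateral SON samples and 5 samples per group, and do not state sample by sample whether each came from a separate camel. The p-values therefore measure the spread between these samples, in which animal, punch and library depth cannot be told apart. Replicates of a group differed by more than sampling noise, and the lowest chi-square per degree of freedom of any pair was 8.03.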

Additional observations from a re-analysis of the deposited data

Results flagged for a closer look

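Dixon's ratio was computed for the CPM of the 7 factors in both groups, which gives 14 groups of 5 libraries, and chance alone flags about 1 in 20 such groups. The control library CON2 stood apart from the other control libraries for SOX8, at 101 CPM, and for OLIG1, at 22.2 CPM. The gap to the next control library divided by the range was above the critical value of 0.71 for both. The 2 are not separate observations, because both come from the same library and the levels of these genes followed each other over the libraries. CON2 had the highest summed level of the mature oligodendrocyte genes (327 CPM). Among the control libraries it also had the highest sums of the astrocyte (813 CPM), microglia (314 CPM) and vascular markers (247 CPM). Its sum of the neurone markers without PCSK1 was the lowest of the controls (154 CPM). The part of these differences in its levels of the factors was not tested.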

How the results depend on the processing

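Across 10 alternative fits and 10 fits that each left out 1 library, 0 of 7 factors passed the threshold in any, and the lowest edgeR padj of a factor was 0.481 (MYRF without CON4). The filter of at least 10 counts in every library left out OLIG1, OLIG2, NKX2-2 and NKX6-2. Of 136 fold changes, 127 kept their sign. The sign turned for SOX8 (0.018) and SOX10 (0.060) with a depth group as covariate, and for OLIG2 with library totals only (0.023). With the RNA integrity number as covariate all 7 fold changes were lower than in the main fit. They were -0.29 for SOX8, -0.28 for SOX10, -0.51 for OLIG1 and -0.23 for OLIG2. For NKX2-2, NKX6-2 and MYRF they were 0.14, -0.47 and -0.44. With 1 library left out, the log2 fold change ranged from -0.23 to 0.18 for SOX8, from -0.28 to 0.19 for SOX10 and from -0.25 to 0.28 for OLIG2. It ranged from -0.42 to -0.04 for OLIG1 and from -0.47 to -0.04 for MYRF. For NKX6-2 the range was -0.49 to -0.01, and for NKX2-2 it was 0.06 to 0.39. Mean CPM of each factor moved by less than 1 SD under the other scalings. Over all genes, 72 were called, 209 by DESeq2, 10 with library totals only, 224 with the depth group as covariate, and 40 to 102 with 1 library left out (40 without CON3, 42 without CON5). DESeq2 called 1 of the HES, HEY and RBPJ genes and 1 astrocyte marker, and the depth group as covariate called 1 of the HES, HEY and RBPJ genes. Of the 21 pairs of factors, 8 passed by r and 10 by rho. By r, 18 passed with library totals only and 13 with a prior count of 2. With 1 library left out, 3 to 12 pairs passed by r and 3 to 10 by rho (3 by rho without CON2, WD6 or WD9). The r of NKX2-2 and MYRF, 0.00 as reported, was -0.026 with DESeq2 size factors, 0.50 with library totals only and 0.21 with a prior count of 2, and with 1 library left out it was between -0.30 and 0.21. With 1 library left out, the r of OLIG1 and NKX2-2 was between -0.037 and 0.44, and that of OLIG2 and NKX6-2 between -0.047 and 0.55, and with library totals only they were 0.75 and 0.62. The causes of these shifts were not tested. No paired analysis was possible because the labels share no replicate numbers between the groups. With 5 camels a group, the intervals of the factors reach from 0.476 to 1.89 times the control level.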
